A study of Mus musculus with 45 samples.

Results

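The loci described here are those of the 8 genes that write, keep and remove DNA methylation in mouse embryonic stem cells (mESC): Dnmt1, Uhrf1, Dnmt3a, Dnmt3b, Dnmt3l, Tet1, Tet2 and Tet3. An open chromatin region (OCR, an ATACseq peak) was taken as a member where its summit lay within 40 kb of the annotated 5′ end of one of these genes (GENCODE, mm10). This gave 134 OCRs of 184964 in the series: 21 at Dnmt1, 19 at Uhrf1, 15 each at Dnmt3a, Dnmt3b and Dnmt3l, 19 at Tet1, 18 at Tet2 and 12 at Tet3. For these genes the rule used position alone, but the genes were chosen with earlier results of these data known. Each OCR is named after the gene and the distance of its summit from the gene's 5′ end, in kb and positive downstream.

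Cells carried an FKBP tag on endogenous SOX2, OCT4 or NANOG, 3 transcription factors of the pluripotency network. They were treated with 500 nM dTAG-13, a degrader that sends the tagged protein to the proteasome. SOX2-FKBP cells were sampled without treatment (NT, cells given DMSO) and after 0.5, 1, 2, 6 and 24 h, with 2 libraries each. OCT4-FKBP cells had 2 libraries each for NT, 2, 6 and 24 h, and NANOG-FKBP cells had 2 NT libraries and 3 each at 2, 6 and 24 h. All cells were kept in serum-free medium with LIF and inhibitors of MEK and GSK3. The labels give E14 as the parent line of SOX2-FKBP and NANOG-FKBP cells and V6.5 as that of OCT4-FKBP cells. A difference between SOX2-FKBP and OCT4-FKBP cells therefore cannot be told apart from one between parent lines. The lines came from homozygous picked clones. The methods describe duplicates and, for SOX2, a further clone, but not which library is from that clone or whether duplicates were separate cultures. The p-values thus measure the spread between these libraries, which may be technical.

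DNA methylation in mammals lies mostly on cytosines of CpG dinucleotides. Dnmt1 copies the pattern to the new strand after replication, guided by Uhrf1, which recognises hemimethylated DNA. Dnmt3a and Dnmt3b place new methylation, helped by Dnmt3l, a cofactor without catalytic activity of its own. The Tet enzymes oxidise methylcytosine, a step towards its removal. mESC in medium with MEK and GSK3 inhibitors are known for low methylation, and Tet1 and Tet2 are the Tet genes known to be expressed in mESC.

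Total counts per library were 5664738 to 10887645 in SOX2-FKBP, 6378962 to 17575631 in OCT4-FKBP and 1817191 to 12437876 in NANOG-FKBP cells, with 1.42% to 17.6% of counts on the mitochondrial genome. An OCR lay within 500 bp of the 5′ end of 8 of 10 pluripotency marker genes, at 2.40 to 45.6 CPM (counts scaled to library size) per kb of OCR in NT cells. Such an OCR was also present at 3 of 4 trophectoderm, 2 of 4 primitive endoderm, 1 of 3 neural, 1 of 3 fibroblast and 1 of 2 mesoderm markers, at 1.90 to 11.2 CPM per kb. An open promoter does not by itself tell that a gene is expressed. Levels are given below as CPM normalised by TMM over the 31 libraries. Lost and gained mean an adjusted p under 0.05 against NT from edgeR's quasi-likelihood test (Benjamini-Hochberg over all OCRs tested), and differences are log2 fold changes with an approximate standard error (SE). SOX2 values come from the fit of 12 SOX2-FKBP libraries unless the 27-library fit of the 3 lines is named.

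Sequence is shown for 5 distal OCRs, 100 bases either side of the summit on the mm10 plus strand. These are the named distal OCRs with the largest 2 h losses (Tet2 +20.3 kb at chr3:133524767-133524967 and Dnmt3b -6.2 kb at chr2:153643135-153643335). The other 3 (Dnmt3b -26.6 kb at chr2:153622721-153622921, Tet2 +26.1 kb at chr3:133518900-133519100 and Dnmt1 -23.5 kb at chr9:20983279-20983479) were chosen after their values were seen, as the other distal losses at 2 h of SOX2 depletion and the OCR whose SOX2 and OCT4 responses differed at 2 h. Capitals mark the matches found on either strand to the SOX core ATTGT (a match on the minus strand is printed as its reverse complement) and to a SOX-POU motif written TTGTNATG, a letter pattern that joins parts of a SOX and a POU site.
Tet2 +20.3 kb: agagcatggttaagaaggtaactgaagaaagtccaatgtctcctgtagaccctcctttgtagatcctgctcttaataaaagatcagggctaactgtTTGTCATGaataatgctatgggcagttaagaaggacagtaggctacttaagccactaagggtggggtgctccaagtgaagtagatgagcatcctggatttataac
Dnmt3b -6.2 kb: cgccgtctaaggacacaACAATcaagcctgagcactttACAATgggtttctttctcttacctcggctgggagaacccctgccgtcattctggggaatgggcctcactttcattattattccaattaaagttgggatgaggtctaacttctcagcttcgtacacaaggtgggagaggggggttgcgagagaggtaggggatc
Dnmt3b -26.6 kb: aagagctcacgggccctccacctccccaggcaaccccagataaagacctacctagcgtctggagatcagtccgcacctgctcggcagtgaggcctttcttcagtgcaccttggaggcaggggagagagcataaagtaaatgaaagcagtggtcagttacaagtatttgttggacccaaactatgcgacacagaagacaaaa
Tet2 +26.1 kb: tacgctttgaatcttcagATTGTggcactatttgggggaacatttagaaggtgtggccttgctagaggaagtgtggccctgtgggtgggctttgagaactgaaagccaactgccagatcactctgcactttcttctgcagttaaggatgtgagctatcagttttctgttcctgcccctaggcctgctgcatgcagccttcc
Dnmt1 -23.5 kb: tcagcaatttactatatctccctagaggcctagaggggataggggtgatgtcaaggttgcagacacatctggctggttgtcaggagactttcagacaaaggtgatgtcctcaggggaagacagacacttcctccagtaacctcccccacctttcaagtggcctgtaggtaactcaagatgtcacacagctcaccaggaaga
In the 150 bases either side of the summit, 26.1% of the 134 members and 33.5% of all OCRs held the SOX core, 5.22% and 4.15% held TTGTNATG, 3.73% and 4.81% held the POU octamer ATGCNAAT, and 23.9% and 17.0% held the KLF motif GGGNGTGG, on either strand. TTGTNATGNAAA, which contains TTGTNATG, was found in 0.746% of members and 0.241% of all OCRs, and CAAGGTCA, the ESRRB motif, in 5.22% and 5.21%. Matches to these letters describe the window and are not evidence of binding.

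SOX2 depletion lowered accessibility first at Dnmt3b and Tet2. Within 0.5 h, 2 member OCRs were lost, both upstream of Dnmt3b, and at 2 h there were 4, 2 at Dnmt3b and 2 in a Tet2 intron. At Dnmt3b -26.6 kb (mm10 chromosome 2, 153621910 to 153623174, over an exon of the neighbouring gene Commd7), NT libraries had 13.8 and 16.0 CPM and 0.5 h libraries had 6.72 and 7.34 CPM. Both 0.5 h libraries were thus below both NT libraries, a log2 fold change of -1.13 (SE 0.20, edgeR adjusted p = 0.000343). This 0.5 h call ended without 0.5 h replicate 1. The level was 5.87 and 5.97 CPM at 2 h and 6.09 and 5.00 CPM at 24 h, log2 fold changes of -1.36 and -1.43 (SE 0.20 each), so most of the fall had taken place by the first time sampled. Dnmt3b -6.2 kb, in intergenic sequence at 153642338 to 153643568 of chromosome 2, had 6.20 and 8.22 CPM in NT, 3.12 and 4.24 CPM at 0.5 h, 3.48 and 3.72 CPM at 2 h and 2.74 and 2.31 CPM at 24 h. All treated libraries lay below NT, with log2 fold changes of -1.03 (SE 0.25, adjusted p = 0.0124), -1.01 (SE 0.24, adjusted p = 0.00345) and -1.50 (SE 0.26, adjusted p = 2.46e-05). The 0.5 h call at Dnmt3b -6.2 kb ended without NT replicate 2 (adjusted p = 0.196), without 0.5 h replicate 1 (adjusted p = 0.508) and in DESeq2 (adjusted p = 0.220). Its 2 h call ended without NT replicate 2 (adjusted p = 0.0816) and in DESeq2 (adjusted p = 0.0753).

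At Tet2 +20.3 kb the loss built up over hours, while Tet2 +26.1 kb changed little after 2 h. With the replicate block both were already called at 0.5 h (-0.44 and -0.68, adjusted p = 0.0309 and 0.0140). Tet2 +20.3 kb (chromosome 3, 133524187 to 133526483, intron of Tet2) had 31.5 and 29.1 CPM in NT, 20.7 and 26.6 at 0.5 h, 17.3 and 19.9 at 2 h, 11.9 and 12.4 at 6 h and 10.7 and 7.40 at 24 h of SOX2 depletion. Every treated library was below both NT libraries, and the groups at 2, 6 and 24 h did not overlap each other. The log2 fold change was -0.43 (SE 0.17, adjusted p = 0.221) at 0.5 h, -0.75 (SE 0.17, adjusted p = 0.00161) at 2 h and -1.77 (SE 0.18, adjusted p = 8.85e-10) at 24 h. The fall between 2 and 24 h was itself past the threshold (-1.03, SE 0.18, adjusted p = 0.000296). Its 1 and 2 h calls ended with GC offsets (adjusted p = 0.137 and 0.0974) and without NT replicate 1 (0.0834 and 0.0537), and the 2 h call also without 2 h replicate 1 (0.0502). Tet2 +26.1 kb, further into the gene at 133518166 to 133519365, went from 9.57 and 9.95 CPM in NT to 4.28 and 4.07 at 2 h and 3.45 and 3.94 at 24 h. These are log2 fold changes of -1.26 (SE 0.24, adjusted p = 0.000174) and -1.41 (SE 0.24, adjusted p = 2.51e-05), and the difference between 2 and 24 h was -0.15 (SE 0.27, adjusted p = 0.794).

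**Figure D1:**
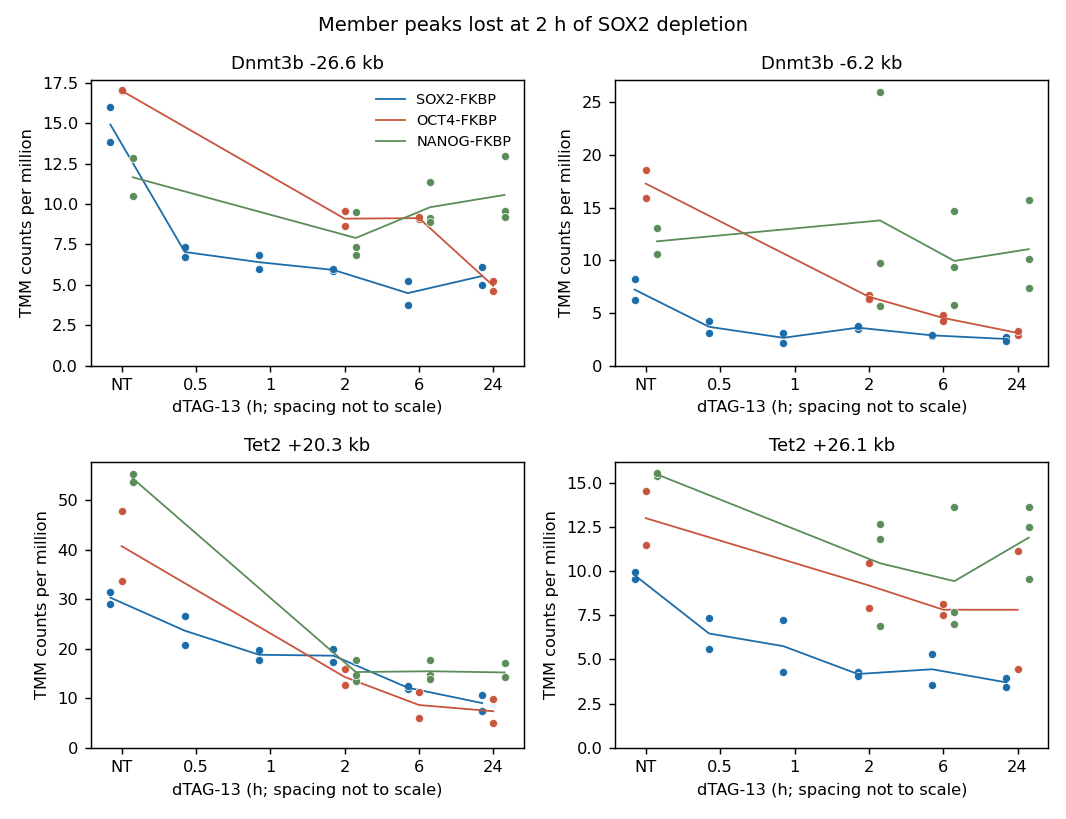
Level of the 4 member OCRs lost at 2 h of SOX2 depletion, in TMM CPM (y axis, from 0), against hours of dTAG-13 (x axis, not to scale). Points are libraries and lines join group means for each FKBP line. Tet2 +20.3 kb falls in all 3 lines, whereas both Dnmt3b OCRs are called in SOX2-FKBP and OCT4-FKBP cells alone.

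Over the SOX2 time course, 122 members passed the count filter (more than 10 counts in more than 2 of 12 libraries). Losses numbered 2 at 0.5 h (1.64%, against 3.14% of all OCRs tested), 4 at 1 h (3.28% against 5.46%), 4 at 2 h (3.28% against 7.28%), 6 at 6 h (4.92% against 9.28%) and 10 at 24 h (8.20% against 14.1%). At each time the share of members lost was below that of all OCRs, a difference that was not tested. Gains came mostly at 24 h, with 0, 1, 1, 0 and 10 members gained at the 5 times, against 0.158%, 0.889%, 1.46%, 2.66% and 9.17% of all OCRs. At 0.5 and 6 h, where edgeR and DESeq2 both called 0 gains, 4 and 12 members were higher at an unadjusted p under 0.05. At 6 h the edgeR gains were 4 with GC offsets, 6 in a fit of only the groups compared, 7 with total counts as scaling and 10 with the replicate block. All 5 times share the NT libraries. Without 24 h replicate 2 or NT replicate 1, the 24 h losses were 5 or 6. The 24 h gains were 3 in DESeq2, 3 without NT replicate 1, 5 without NT replicate 2 and 6 without 24 h replicate 1.

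After OCT4 depletion losses outnumbered gains at 24 h, and Tet1 held more of them than any other of the 8 loci. Of 130 members tested, the losses at 2, 6 and 24 h were 5, 7 and 21 members, against 5.1%, 7.97% and 12.7% of all OCRs. The gains were 5, 6 and 10 members, against 1.92%, 4.12% and 10.8% of all OCRs. The 24 h losses make up 16.2% of members, and the median log2 fold change was -0.09 in members and -0.01 in all OCRs. Of the 21 losses at 24 h, 8 were at Tet1, 4 at Tet2, 4 at Dnmt3b, 2 each at Uhrf1 and Dnmt3l and 1 at Dnmt3a, while Dnmt1 and Tet3 had none (0 and 0 also at an unadjusted p under 0.05). The counts above are from the fit without a replicate block. Same-numbered OCT4-FKBP libraries deviated together, and with the replicate as a block the counts were 12 lost and 17 gained at 6 h and 20 gained at 24 h, with every unblocked call kept. At 24 h the block added losses at Dnmt1 -19.4 kb, Uhrf1 -15.3 kb, Dnmt3a +19.9 kb, Dnmt3b +31.8 kb, Dnmt3l +13.5 kb, Tet2 +26.1 kb and Tet2 +36.1 kb. Without 24 h replicate 1, 13 were lost and 4 gained at 24 h. The 2 h gains dropped to 2, 2 and 1 without NT replicate 1, NT replicate 2 and 2 h replicate 1, and the 2 h losses to 3 without any of these and to 1 without 2 h replicate 2.

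With NANOG depletion a single member was called in the fit without the replicate block. The treated replicate 2 libraries were shallow, with 1817191, 3272168 and 2767190 counts at 2, 6 and 24 h. Of these counts 17.6%, 13.2% and 17.0% were mitochondrial. So few calls do not show that other members were unchanged. Tet2 +20.3 kb was the 1 loss of 130 members at each of 2, 6 and 24 h, where 0.938%, 1.08% and 2.25% of all OCRs were lost. No member was gained by edgeR or DESeq2 (1, 3 and 7 at an unadjusted p under 0.05), against 0.0162%, 0.0367% and 0.288% of all OCRs. Without the block, 46 members were called at least once over all 3 lines and 11 comparisons with NT. Of these, 25 were lost and 21 gained, 0 in both directions, and 88 members were never called. The 46 are 35.4% of the 130 tested, where 38.3% of all OCRs tested were called at least once (19.2% lost against 20.5%, and 16.2% gained against 19.3%). The 4 members not tested in the 3 lines never exceeded 17 raw counts in a library.

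**Figure D2:**
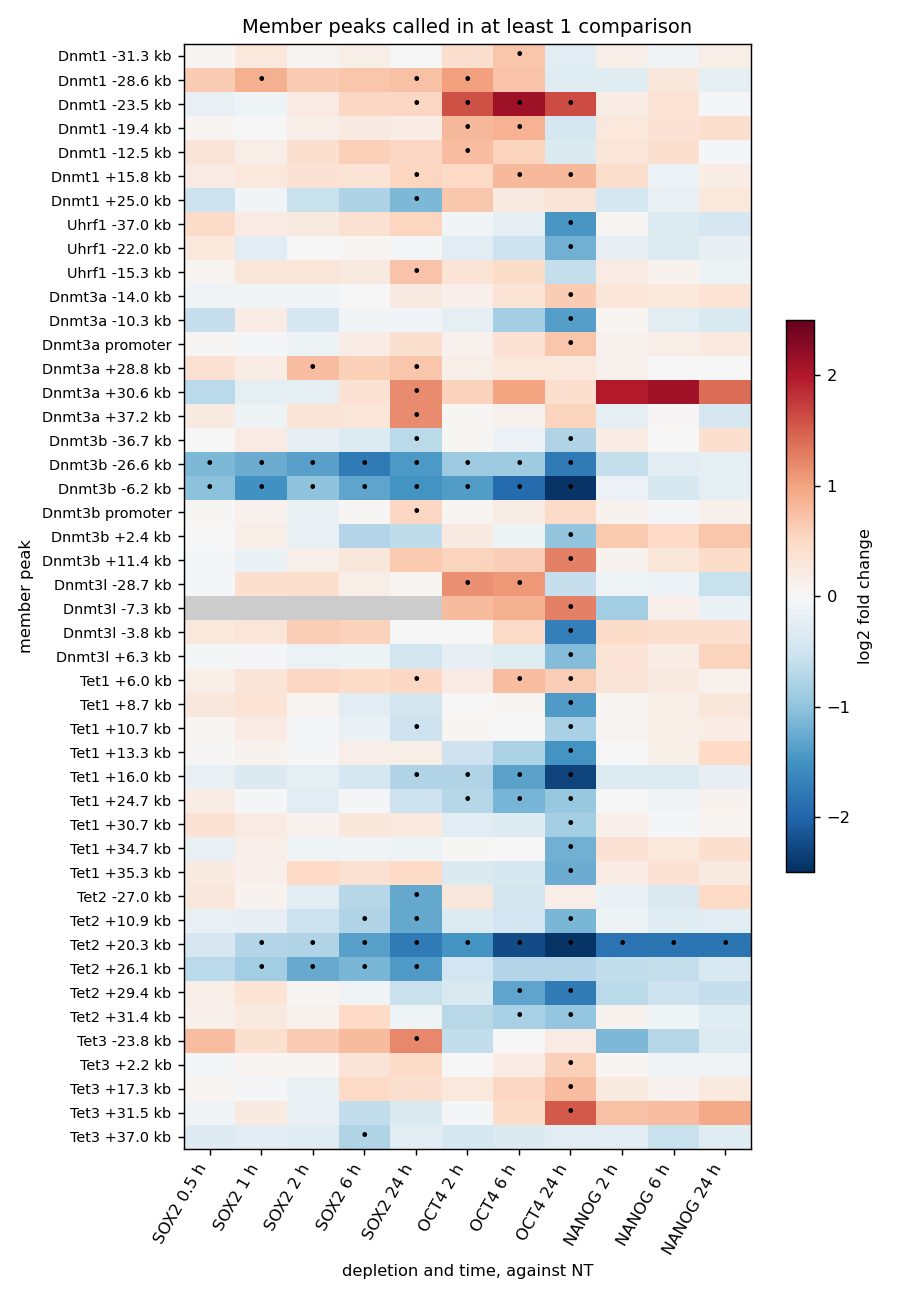
Log2 fold change against NT (colour, blue lower and red higher, limited to 2.5 in either direction) of the 46 members called in at least 1 of 11 comparisons. Rows are OCRs, columns are depletions and times, dots mark calls and grey marks comparisons not tested. Tet1 and Tet2 rows are mostly blue under OCT4 depletion and Dnmt1 rows mostly red.

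Among the maintenance genes, 4 of 21 Dnmt1 OCRs were gained at 2 h of OCT4 depletion (against 1.92% of all OCRs) and 2 at 24 h (against 10.8%). All 21 had a log2 fold change above 0 at 2 h (median 0.46, against 0.02 over all OCRs), and 12 of 21 did at 24 h. The strongest was Dnmt1 -23.5 kb (chromosome 9, 20983098 to 20983727), intergenic and at -6598 bp from the start of S1pr2, a sphingosine phosphate receptor gene which lies in the same window. It had 7.74 and 6.49 CPM in NT, 25.9 and 17.2 at 2 h, 32.7 and 28.8 at 6 h and 19.1 and 24.1 at 24 h of OCT4 depletion. All treated libraries stood above both NT libraries, with log2 fold changes of 1.60 (SE 0.24, adjusted p = 1.1e-05), 2.12 (SE 0.24, adjusted p = 1.59e-08) and 1.62 (SE 0.25, adjusted p = 3.98e-06). In NANOG-FKBP cells the same OCR had 8.03 and 6.43 CPM in NT and 6.92, 5.55 and 7.87 at 24 h, and these groups overlapped.

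The other 3 gains at 2 h of OCT4 depletion were not called at 24 h. Dnmt1 -28.6 kb, -19.4 kb and -12.5 kb rose by 1.03, 0.82 and 0.78 on the log2 scale at 2 h (adjusted p = 0.0141, 0.0166 and 0.0367). They were lower at 24 than at 2 h by log2 fold changes of -1.33, -1.26 and -1.14 (adjusted p = 0.00349, 0.000259 and 0.00253). Dnmt1 -19.4 kb shows the course, with 29.5 and 29.6 CPM in NT, 60.3 and 43.5 at 2 h and 17.4 and 25.5 at 24 h. The coding start nearest to these 3 OCRs is that of S1pr2, at -11678, -2534 and 1632 bp, and Dnmt1 -12.5 kb lies in an S1pr2 intron. In each of the 4 OCRs gained at 2 h, replicate 1 was higher than replicate 2. Without 2 h replicate 1 the call at Dnmt1 -23.5 kb held (adjusted p = 0.00292) and those at Dnmt1 -28.6 kb, -19.4 kb and -12.5 kb ended (0.242, 0.340 and 0.437). They also ended without NT replicate 2 (0.166, 0.107 and 0.0573), and without NT replicate 1 for the last pair (0.102 and 0.300). With the replicate block Dnmt1 -19.4 kb was past the threshold as a loss at 24 h (-0.44, adjusted p = 0.0429). Dnmt1 -31.3 kb rose at 6 h (0.69, SE 0.21, adjusted p = 0.0260) and also fell between 2 and 24 h (-0.66, adjusted p = 0.0461). Dnmt1 +15.8 kb, in a Dnmt1 intron, was gained at 6 and 24 h (0.80 and 0.82, adjusted p = 0.0267 and 0.0193). The OCR at an annotated Dnmt1 start, Dnmt1 +7.0 kb, had 38.5 and 33.1 CPM in NT, 41.8 and 36.2 at 2 h and 50.6 and 42.1 at 24 h (0.39, SE 0.20, adjusted p = 0.155 at 24 h, or 0.0377 with the replicate block).

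With SOX2 depletion, Dnmt1 OCRs were called mostly at 24 h. At that time Dnmt1 -28.6 kb, +15.8 kb and -23.5 kb rose by 0.72, 0.53 and 0.52 on the log2 scale (adjusted p = 0.0319, 0.0438 and 0.0396) and the intronic Dnmt1 +25.0 kb fell by 1.13 (adjusted p = 0.0434). Dnmt1 -28.6 kb was also the 1 gain at 1 h (0.89, adjusted p = 0.0259). This 1 h call ended in DESeq2 and whichever of the NT and 1 h libraries was left out. The call of Dnmt1 -23.5 kb ended in 5 alternatives, among them DESeq2 (adjusted p = 0.180) and leaving out NT replicate 1, NT replicate 2 or 24 h replicate 1 (0.232, 0.131 and 0.293).

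Uhrf1 OCRs were called in 3 places (15.8% of the 19 tested, against 38.3% of all OCRs), none of them at its start. The promoter OCR (chromosome 17, 56302734 to 56304660) had 37.7 and 40.8 CPM in SOX2-FKBP NT and 44.1 and 46.2 after 24 h (0.19, SE 0.14, adjusted p = 0.376), and 46.2 and 48.7 against 76.7 and 58.4 in OCT4-FKBP cells (0.53, SE 0.20, adjusted p = 0.0527). Under the replicate block it was called in OCT4-FKBP cells at 6 and 24 h (0.42 and 0.52, adjusted p = 0.0280 and 0.00419). Uhrf1 -37.0 kb (56266126 to 56267052, intergenic, nearest to Fem1a) fell after 24 h of OCT4 depletion from 8.16 and 7.86 to 2.16 and 3.60 CPM (-1.46, SE 0.29, adjusted p = 0.000181). Uhrf1 -22.0 kb, in an intron of Plin3, a lipid droplet protein gene, fell by 1.20 on the log2 scale (adjusted p = 0.0101). In SOX2-FKBP cells the 1 call was a gain at Uhrf1 -15.3 kb, also in Plin3, from 6.73 and 9.09 to 12.1 and 13.8 CPM at 24 h (0.72, SE 0.19, adjusted p = 0.00509). It ended without NT replicate 1 (adjusted p = 0.212), without 24 h replicate 2 (0.0583) and with GC offsets (0.0569).

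Of the de novo genes, Dnmt3a had 5 members gained and 1 lost in at least 1 comparison. These are 35.7% and 7.14% of the 14 tested, against 19.3% and 20.5% of all OCRs. A further 9 were never called, the untested included. The Dnmt3a promoter OCR, the widest member at 3063 bp (chromosome 12, 3805978 to 3809040), had 29.7 and 25.3 CPM in OCT4-FKBP NT and 51.9 and 35.9 after 24 h (0.69, SE 0.23, adjusted p = 0.0248). In SOX2-FKBP cells it had 18.2 and 20.5 CPM in NT and 22.4 and 29.2 after 24 h (0.41, SE 0.16, adjusted p = 0.0689). The OCT4 call ended with GC offsets (0.21, adjusted p = 0.447) and without NT replicate 1, NT replicate 2 or 24 h replicate 1 (adjusted p = 0.0570, 0.219 and 0.404). Inside the gene, SOX2 depletion for 24 h raised Dnmt3a +28.8 kb, +30.6 kb and +37.2 kb by 0.68, 1.19 and 1.18 on the log2 scale (adjusted p = 0.0283, 0.00695 and 0.000903). Dnmt3a +37.2 kb went from 2.22 and 2.74 CPM to 5.89 and 5.29 CPM, without overlap, and its call ended without NT replicate 1 (1.00, adjusted p = 0.0571). After OCT4 depletion the value at Dnmt3a +37.2 kb was 0.57 (SE 0.32, adjusted p = 0.207), Dnmt3a -14.0 kb rose (0.64, adjusted p = 0.0486) and Dnmt3a -10.3 kb fell (-1.37, adjusted p = 0.0125).

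At Dnmt3b, 3 upstream OCRs were lost with SOX2 and with OCT4, and the promoter OCR was gained with SOX2. After 24 h of OCT4 depletion Dnmt3b -6.2 kb went from 18.6 and 15.9 CPM to 2.93 and 3.27 CPM, and Dnmt3b -26.6 kb from 17.0 and 17.0 to 4.63 and 5.24 CPM. These are log2 fold changes of -2.45 (SE 0.40, adjusted p = 1.17e-05) and -1.77 (SE 0.25, adjusted p = 7.64e-07), the former among the largest losses of any member. Both were already lost at 2 h (-1.39, SE 0.34, adjusted p = 0.00490, and -0.90, SE 0.22, adjusted p = 0.00467). Both 2 h calls ended without 2 h replicate 2 (log2 fold changes -1.34 and -0.81). Dnmt3b -36.7 kb fell at 24 h in both lines (-0.67, adjusted p = 0.0128 in SOX2-FKBP and -0.76, adjusted p = 0.0231 in OCT4-FKBP cells). The promoter OCR (chromosome 2, 153648864 to 153650708) had 15.2 and 19.0 CPM in SOX2-FKBP NT and 24.3 and 25.1 at 24 h (0.52, SE 0.17, adjusted p = 0.0199), and the change between 2 and 24 h was 0.68 (SE 0.17, adjusted p = 0.00617). In OCT4-FKBP cells the promoter value was 0.48 (SE 0.22, adjusted p = 0.117, or 0.0250 with the replicate block). The SOX2 promoter call ended with GC offsets (0.23, adjusted p = 0.347), in DESeq2 (adjusted p = 0.0957) and without NT replicate 1 or 24 h replicate 2 (0.326 and 0.0888). Within the gene, OCT4 depletion lowered Dnmt3b +2.4 kb (-0.98, adjusted p = 0.0208) and raised Dnmt3b +11.4 kb (1.25, SE 0.28, adjusted p = 0.000983).

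Without the replicate block, Dnmt3l OCRs were called against NT under OCT4 depletion alone, 2 lost and 2 gained. These are 13.3% each of the 15 tested, against 20.5% and 19.3% of all OCRs. With the block, Dnmt3l -32.4 kb, -13.7 kb and +27.5 kb were gained at 24 h of SOX2 depletion (0.39, 0.60 and 0.44, adjusted p = 0.00992, 0.0446 and 0.0238). The block also made Dnmt3l +13.5 kb a loss at 24 h of OCT4 depletion (-0.92, adjusted p = 0.00168). Dnmt3l -3.8 kb (chromosome 10, 78037251 to 78038501), at the start of Aire, a regulator of thymic tolerance, had 4.29 and 6.15 CPM in NT and 1.23 and 1.96 at 24 h (-1.71, SE 0.40, adjusted p = 0.00130). Without 24 h replicate 1 it was -1.41 (adjusted p = 0.0562). Dnmt3l +6.3 kb, an intronic OCR, fell from 26.4 and 31.1 to 10.8 and 15.9 CPM (-1.09, SE 0.35, adjusted p = 0.0190). Dnmt3l -28.7 kb rose at 2 and 6 h (1.15 and 1.08, adjusted p = 0.0270 and 0.0244) and then fell between 2 and 24 h (-1.72, SE 0.41, adjusted p = 0.00317), a course like that of the Dnmt1 gains. Its 2 h call ended in 6 of the alternatives, DESeq2 (adjusted p = 0.0659) and GC offsets (0.0989) among them.

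Tet1, the Tet gene with the largest number of members called, lost accessibility at 8 members after 24 h of OCT4 depletion, where 12.7% of all OCRs were lost. Of 19 Tet1 members 1 was gained at that time and 10 were not called, with a median log2 fold change of -0.64, against -0.01 over all OCRs. By share called in at least 1 comparison, Tet3 stood above Tet1 (50% of 10 tested against 47.4% of 19). The 8 losses lay 8.7 to 35.3 kb downstream of the annotated 5′ end, and the part of the gene beyond 40 kb was not covered by the distance rule. The largest was Tet1 +16.0 kb (chromosome 10, 62892660 to 62893388), whose summit lies 11 bp from an annotated start of a shorter Tet1 transcript. It went from 20.2 and 22.4 CPM in NT to 11.8 and 13.5 at 2 h, 9.60 and 7.25 at 6 h and 4.01 and 4.42 at 24 h. The 4 groups did not overlap each other, and the log2 fold changes were -0.74 (SE 0.23, adjusted p = 0.0403), -1.33 (SE 0.24, adjusted p = 5.02e-05) and -2.32 (SE 0.28, adjusted p = 4.31e-08). The 2 h call ended without any 1 of the 4 libraries (adjusted p between 0.0868 and 0.297), in DESeq2 and with GC offsets.

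SOX2 depletion lowered Tet1 +16.0 kb less, from 17.4 and 19.0 to 12.9 and 9.04 CPM at 24 h (-0.75, SE 0.18, adjusted p = 0.00179), and this call ended with GC offsets (-0.41, adjusted p = 0.0987) and without 24 h replicate 2 (-0.52, adjusted p = 0.0779). Tet1 +10.7 kb fell in both lines (-0.52, adjusted p = 0.0181 with SOX2 and -0.81, adjusted p = 0.00344 with OCT4). Tet1 +24.7 kb fell early after OCT4 depletion, by 0.72 at 2 h and 1.16 at 6 h on the log2 scale (adjusted p = 0.0315 and 0.000138). Its 2 h call ended whichever of the NT and 2 h libraries was left out (log2 fold changes between -0.81 and -0.64). Tet1 +6.0 kb was the 1 Tet1 gain, from 10.1 and 12.1 to 14.8 and 19.0 CPM at 24 h of OCT4 depletion (0.62, SE 0.22, adjusted p = 0.0392) and from 13.6 and 10.7 to 19.6 and 16.2 CPM at 24 h of SOX2 depletion (0.53, SE 0.18, adjusted p = 0.0275). The former ended with total counts as scaling (0.51, adjusted p = 0.0904) and in 5 other alternatives, the latter in DESeq2 (adjusted p = 0.120) and without NT replicate 2 or 24 h replicate 1 (0.281 and 0.194). Tet1 +21.5 kb, at another annotated start, had 37.4 and 31.8 CPM in NT and 60.8 and 35.2 after 24 h of OCT4 depletion (0.49, SE 0.22, adjusted p = 0.107, or 0.0158 with the replicate block), so that neighbouring Tet1 starts had values on opposite sides of 0.

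Without the replicate block, Tet2 OCRs were lost and never gained. Of 18 members, 6 were called in at least 1 comparison, 6 lost and 0 gained. With the block, Tet2 -32.4 kb was gained at 24 h of NANOG depletion (1.15, adjusted p = 0.0482). The 6 are 35.3% of the 17 tested, against 20.5% of all OCRs lost at least once. The Tet2 median at 24 h of OCT4 depletion was -0.57. Tet2 +20.3 kb went from 33.7 and 47.8 CPM in NT to 12.7 and 15.9 at 2 h and 4.94 and 9.82 at 24 h of OCT4 depletion (-1.50, SE 0.25, adjusted p = 4.53e-05, and -2.46, SE 0.28, adjusted p = 1.28e-08). In NANOG-FKBP cells it went from 55.2 and 53.6 CPM to 13.5, 14.6 and 17.8 at 2 h and 17.0, 14.3 and 14.3 at 24 h (-1.85, SE 0.24, adjusted p = 1.36e-05, and -1.83, SE 0.23, adjusted p = 2.09e-06). Without the replicate block, it was thus the member called in all 3 lines. With SOX2 and OCT4 it was lower at 24 than at 2 h, while with NANOG the level was 28.1% of NT at 2 h and 28.0% at 24 h. Its NANOG and OCT4 calls were kept in every alternative run, though a 20 kb window would leave this OCR out.

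Further OCRs within Tet2 were lost at later times. Tet2 +10.9 kb fell after 24 h from 22.5 and 17.7 to 9.14 and 7.79 CPM with SOX2 (-1.28, SE 0.20, adjusted p = 6.34e-06) and from 31.0 and 39.6 to 12.8 and 18.8 CPM with OCT4 (-1.14, SE 0.22, adjusted p = 0.000149). Tet2 +29.4 kb fell with OCT4 (-1.78, SE 0.32, adjusted p = 5.15e-05), and its value with SOX2 was -0.56 (SE 0.29, adjusted p = 0.166). Tet2 +31.4 kb, over an exon, fell with OCT4 too (-0.97, adjusted p = 0.0201). Tet2 +26.1 kb, lost with SOX2, had 11.4 and 14.5 CPM in OCT4-FKBP NT and 4.48 and 11.1 at 24 h (-0.73, SE 0.30, adjusted p = 0.0769). The replicate block made it a loss with OCT4 too (-0.75, adjusted p = 0.00530). The Tet2 promoter OCR (chromosome 3, 133543089 to 133545299) was not called in any comparison, with values from -0.24 to 0.35 over the 11 of them.

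Tet3, the Tet gene best known from the oocyte and zygote, had 4 members gained and 1 lost in at least 1 comparison. These are 40% and 10% of the 10 tested, against 19.3% and 20.5% of all OCRs. A further 7 were never called, those not tested included. Tet3 +31.5 kb (chromosome 6, 83427359 to 83428536, intron) had 3.79 and 2.62 CPM in OCT4-FKBP NT, 2.86 and 3.25 at 2 h and 7.25 and 11.0 at 24 h (1.54, SE 0.32, adjusted p = 0.000342 at 24 h). It was the 1 member gained between 2 and 24 h of OCT4 depletion (1.57, SE 0.33, adjusted p = 0.000817). Tet3 +2.2 kb and Tet3 +17.3 kb, at annotated starts, rose by 0.59 and 0.77 on the log2 scale (adjusted p = 0.0370 and 0.00323). Tet3 -23.8 kb, in an intron of Dguok, rose at 24 h of SOX2 depletion (1.19, SE 0.28, adjusted p = 0.00127), and Tet3 +37.0 kb fell at 6 h (-0.76, SE 0.21, adjusted p = 0.0129). Chromosome 6 took 6.05% to 6.15% of counts in OCT4-FKBP replicate 1 libraries, 7.29% to 7.59% in replicate 2 libraries and 4.11% to 5.23% in SOX2-FKBP and NANOG-FKBP libraries. Its part in the Tet3 results was not tested.

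**Figure D3:**
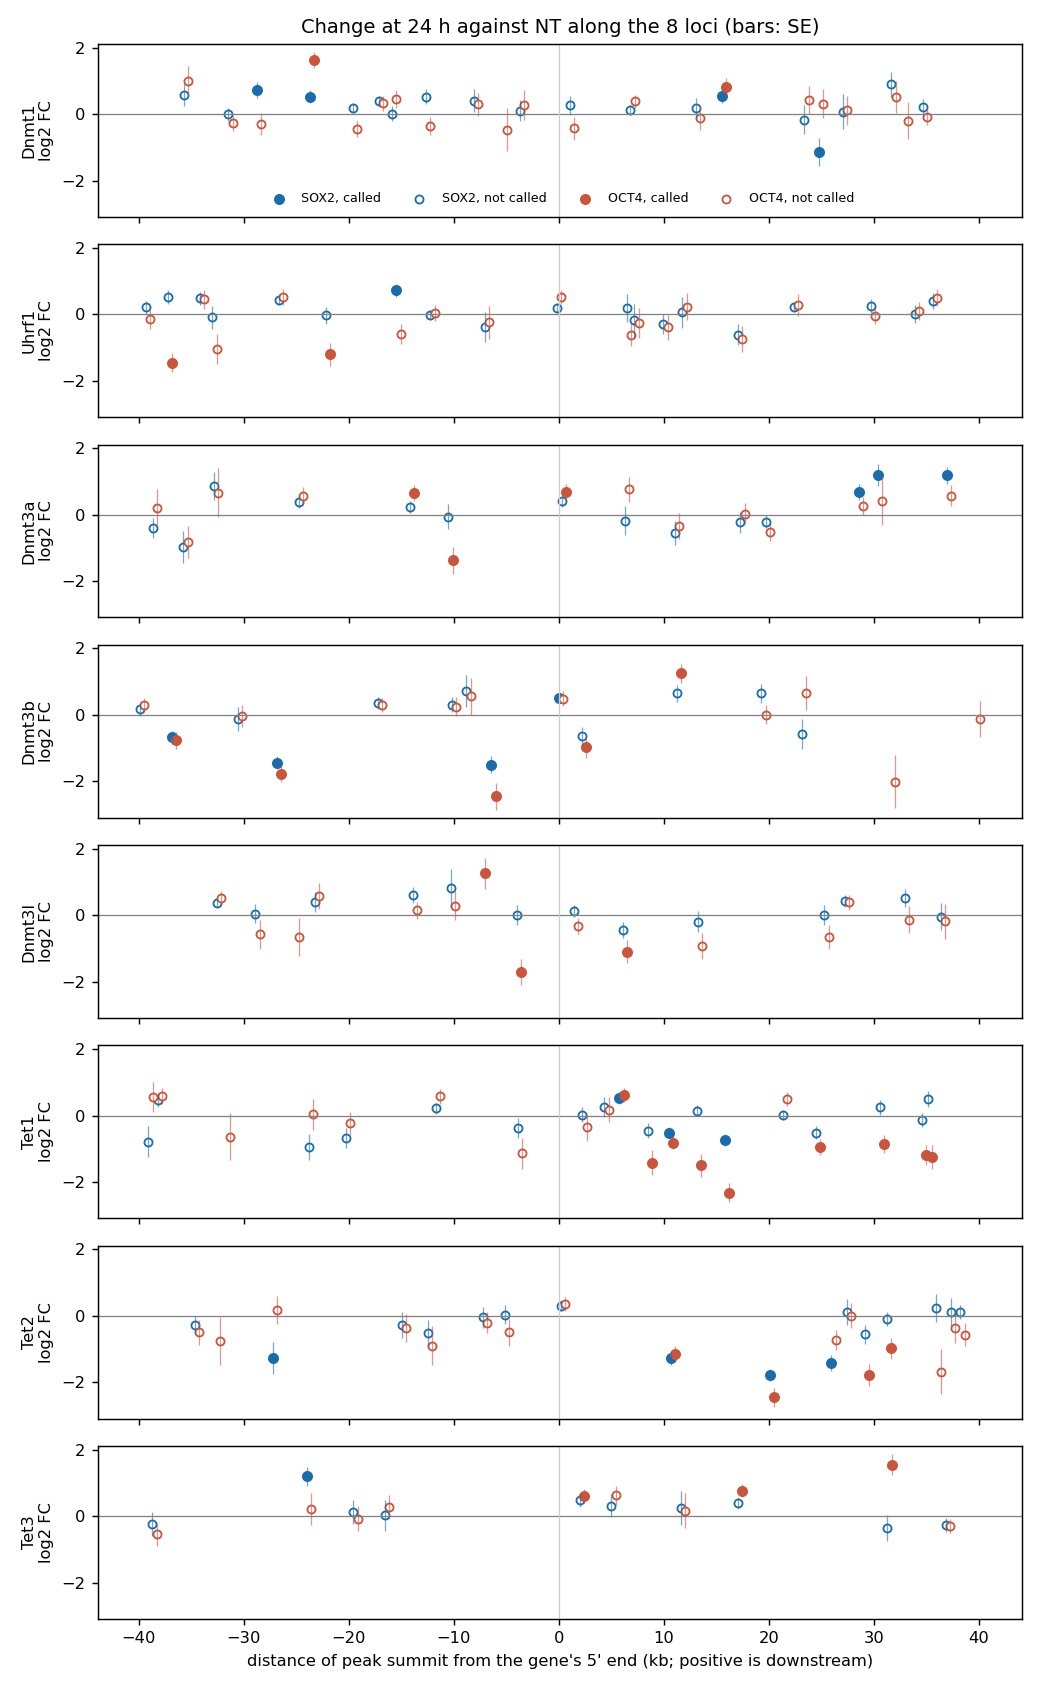
Log2 fold change at 24 h against NT (y axis, bars are SE) of the members at each of the 8 loci against the distance of the summit from the gene's 5′ end in kb (x axis). Filled points are called, open points are not, blue is SOX2 and red is OCT4 depletion. The 8 called Tet1 losses under OCT4 depletion lie 8.7 to 35.3 kb into the gene.

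Between 2 and 24 h, 4 members fell and 6 rose with SOX2 (5.99% and 5.02% of all OCRs), and 21 fell and 1 rose with OCT4 (8.25% and 6.08%). The SOX2 changes included rises at the promoters of Dnmt3a (0.54, SE 0.16, adjusted p = 0.0264) and Dnmt3b. Of the 21 OCT4 falls, 5 were at Tet1, 4 at Dnmt1, and 3 each at Tet2, Dnmt3b and Dnmt3l. With the replicate block 38 OCT4 members changed, against 22 without it, and the 22 became 9 without 24 h replicate 1 and 13 without 2 h replicate 2. SOX2 changes were 3 in DESeq2, 6 without 2 h replicate 1 and 2 without 2 h or 24 h replicate 2.

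Values at start-site OCRs lay mostly above 0, and how many passed the test depended on the fit. No OCR summit lay within 1 kb of the 5′ end of Dnmt1, Dnmt3l, Tet1 or Tet3, so 4 of the 11 OCRs at the genes' own annotated starts are promoter OCRs of Uhrf1, Dnmt3a, Dnmt3b and Tet2 and the other 7 sit at starts of shorter transcripts. At 24 h, 9 of 11 had values above 0 with SOX2 (median 0.31) and 9 of 11 with OCT4 (median 0.48), while the medians over all OCRs were 0.04 and -0.01. In SOX2-FKBP cells 1 was gained and 1 lost, and in OCT4-FKBP cells 3 were gained and 1 lost, with Tet1 +16.0 kb as the loss in both. The gains were 7 of 11 with OCT4 and 4 with SOX2 in the fit with the replicate block. These OCRs are rich in GC, with a median of 59.8% against 51.2% in the 113 distal members. The share of counts in the top decile of OCRs by GC content was 30.9% to 35.8% in OCT4-FKBP 24 h libraries and 24.8% to 25.4% in NT, and 25.9% to 27.9% and 21.5% to 21.7% in SOX2-FKBP cells. With offsets that take out each library's GC trend, the medians were 0.17 with OCT4 and 0.08 with SOX2. Values were above 0 at 9 of 11 with OCT4 and at 6 of 11 with SOX2. Of the 3 OCT4 gains 0 remained past the threshold. With SOX2 1 gain was called, but not at the Dnmt3b promoter, whose call ended.

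**Figure D4:**
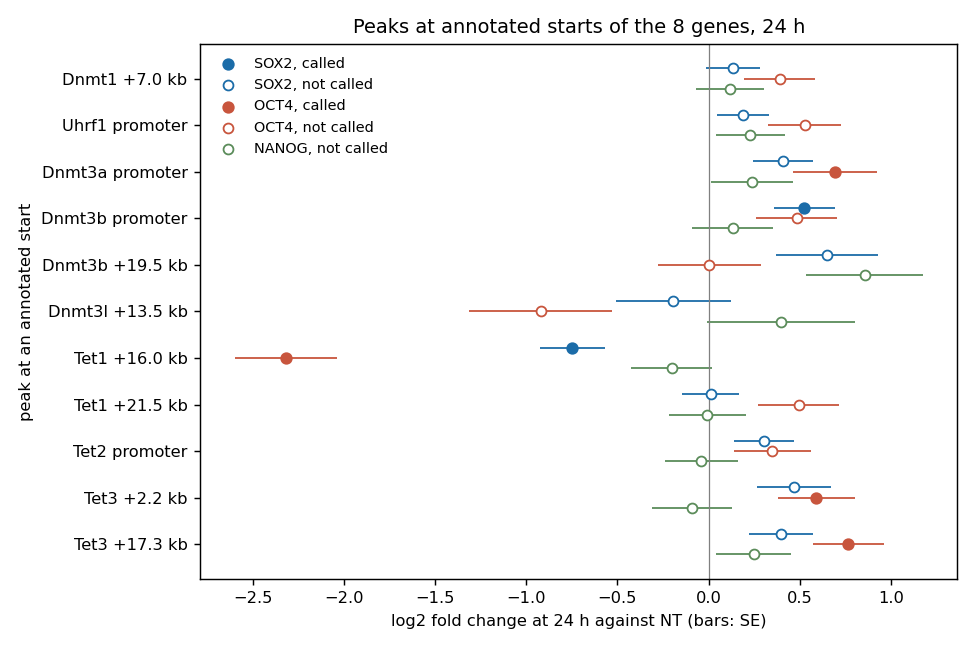
Log2 fold change at 24 h against NT (x axis, bars are SE) of the 11 OCRs at annotated starts of the 8 genes (y axis), for the 3 lines. Filled points are called. Tet1 +16.0 kb lies below 0 with SOX2 and OCT4, whereas most other start OCRs lie above 0 in both.

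The responses to SOX2 and OCT4 loss were compared directly in the 27-library fit, as the SOX2 change minus the OCT4 change. They differed at 1 of 130 members at 2 h (1.57% of all OCRs) and at 5 at 24 h (2.77%). With the replicate block the counts were 2 and 11. At 2 h the difference was at Dnmt1 -23.5 kb, where the SOX2 change in this fit was 0.26 (SE 0.25) and the OCT4 change 1.60 (difference -1.34, SE 0.35, adjusted p = 0.0327). It was not past the threshold without OCT4 NT replicate 2 (adjusted p = 0.0967) or OCT4 2 h replicate 1 (0.256).

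At 24 h the differences were at Tet1, Uhrf1 and Tet3. Uhrf1 -37.0 kb had 4.96 and 5.05 CPM in SOX2-FKBP NT and 7.82 and 6.83 at 24 h (0.57, SE 0.26), the opposite side of NT from its loss with OCT4 (difference 2.03, SE 0.39, adjusted p = 0.00127). This difference was kept in every alternative run. For Tet1 +16.0 kb, lower in both, the SOX2 change was -0.71 (SE 0.24) and the difference 1.61 (SE 0.37, adjusted p = 0.00913, or 0.0603 without OCT4 24 h replicate 1). Tet1 +13.3 kb had 15.0 and 17.0 CPM in SOX2-FKBP NT and 20.0 and 15.8 at 24 h, and 4.38 and 9.0 CPM in OCT4-FKBP NT and 1.70 and 3.11 at 24 h (difference 1.68, SE 0.43, adjusted p = 0.0206). The OCT4 NT libraries thus stood far apart, and without NT replicate 2 the difference was 1.01 (adjusted p = 0.310) and the OCT4 loss -0.88 (adjusted p = 0.134). Without OCT4 24 h replicate 1 they were 1.26 (adjusted p = 0.220) and -1.12 (adjusted p = 0.0745). Tet1 +35.3 kb had 4.34 and 5.05 CPM in SOX2-FKBP NT and 5.89 and 7.31 at 24 h, against 7.74 and 5.41 and then 3.09 and 2.29 in OCT4-FKBP cells (difference 1.77, SE 0.48, adjusted p = 0.0313). Tet3 +31.5 kb had 1.51 and 2.60 CPM in SOX2-FKBP NT and 1.22 and 1.83 at 24 h (difference -1.88, SE 0.54, adjusted p = 0.0472). The last 2 differences were not past the threshold in DESeq2 (adjusted p = 0.0699 and 0.0564), nor for Tet1 +35.3 kb without OCT4 NT replicate 1, 24 h replicate 1 or 24 h replicate 2 (0.134, 0.0648 and 0.146), nor for Tet3 +31.5 kb without OCT4 NT or 24 h replicate 2 (0.157 and 0.187).

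**Figure D5:**
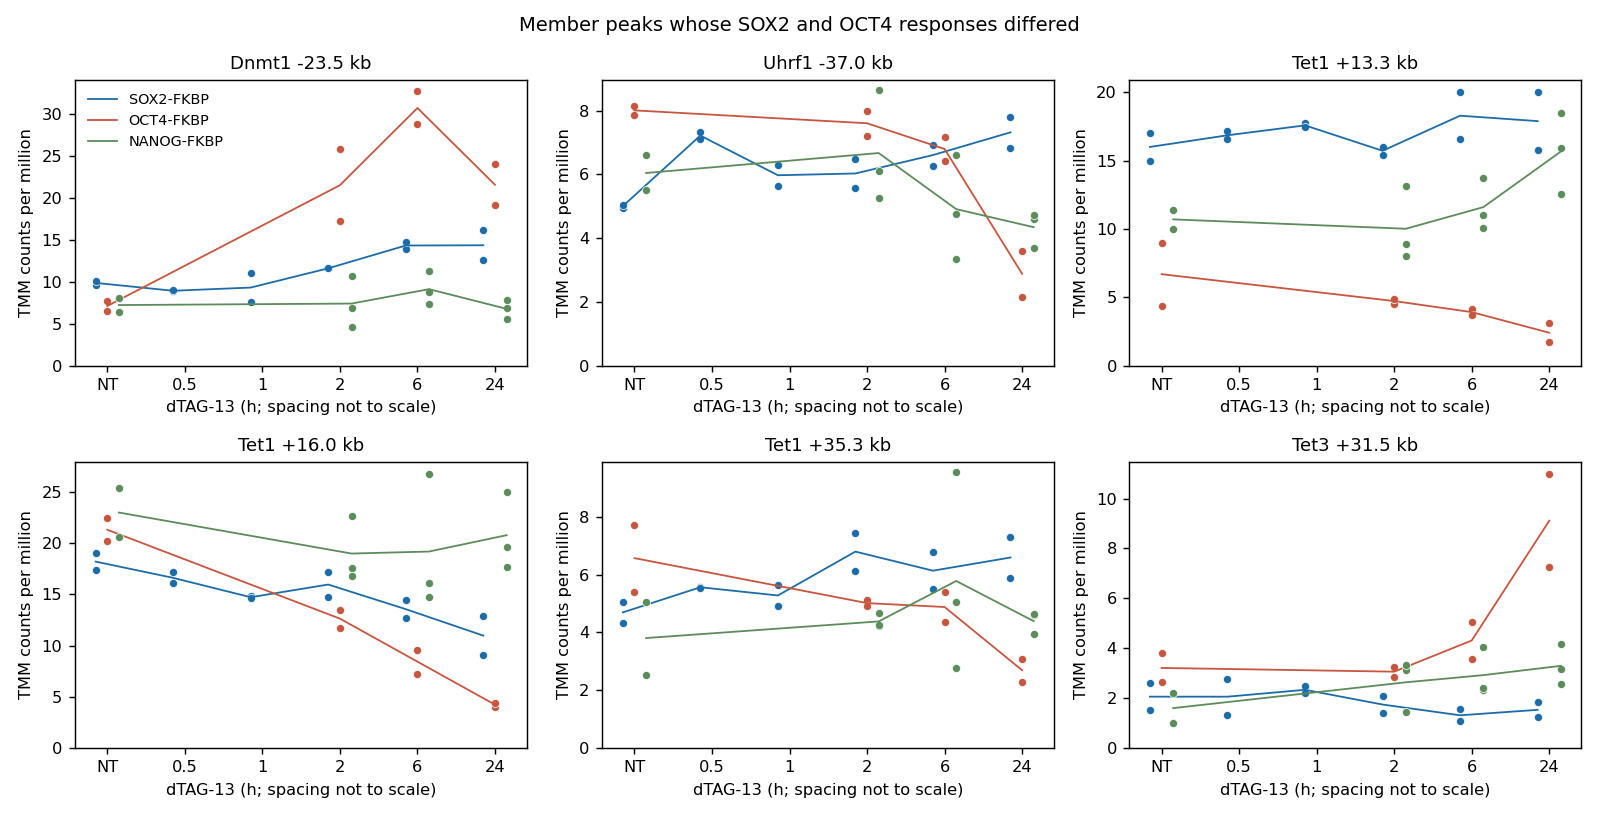
Level in TMM CPM (y axis, from 0) against hours of dTAG-13 (x axis, not to scale) for the 6 members whose SOX2 and OCT4 responses differed. Points are libraries and lines join group means. Dnmt1 -23.5 kb and Tet3 +31.5 kb rise with OCT4, and the other 4 fall with OCT4.

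Because SOX2-FKBP and OCT4-FKBP cells have their own NT libraries, their lists can be set side by side in the shared 27-library fit. The overlap over all OCRs was not computed, so the counts and shares below cannot be called high or low. At 24 h, 5 members were lost in both, 62.5% of the 8 SOX2 losses and 23.8% of the 21 OCT4 losses in that fit. At 2 h the 1 shared loss was 33.3% of the 3 SOX2 losses and 20.0% of the 5 OCT4 losses. Shared gains were 0 at 2, 6 and 24 h in this fit, in which SOX2 had 0, 0 and 3 gains. With the 12-library fit for SOX2, shared losses numbered 3 at 2 h and 7 at 24 h, all at Dnmt3b, Tet1 or Tet2, and shared gains at 24 h were 3, Dnmt1 +15.8 kb, Dnmt1 -23.5 kb and Tet1 +6.0 kb.

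Other genes of the pathway, a list of 31 that read, protect or help to remove methylation, had 454 OCRs by the same distance rule, 5 of them also members. SOX2 losses were 21 of 418 tested at 2 h (5.02%, against 7.28% of all OCRs) and 45 at 24 h (10.8% against 14.1%), and gains were 3 (0.718% against 1.46%) and 37 (8.85% against 9.17%). With OCT4, losses were 15 of 419 at 2 h (3.58% against 5.1%) and 61 at 24 h (14.6% against 12.7%), and gains were 11 (2.63% against 1.92%) and 48 (11.5% against 10.8%). With NANOG 12 were lost and 2 gained at 24 h (2.86% and 0.477%, against 2.25% and 0.288%). At Dppa3, which protects the maternal genome from demethylation, the OCR at -1740 bp from the start had a log2 fold change of -2.29 after 2 h without OCT4 (SE 0.26, adjusted p = 8.53e-08). At Zfp57, which keeps methylation at imprinted regions, an OCR 26530 bp downstream of the start fell by 2.02 (SE 0.30, adjusted p = 7.50e-06). An OCR 12085 bp downstream of the start of Gadd45g, linked to DNA repair and demethylation, rose by 1.78 (SE 0.31, adjusted p = 7.77e-05). These 3 were chosen after their values were seen.

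At the edge of the distance rule, Dnmt3b +39.9 kb and Dnmt3b -39.7 kb were just inside and had log2 fold changes of -0.13 and 0.30 at 24 h of OCT4 depletion. The OCRs just outside, 40.2 kb from Dnmt3a and -40.3 kb from Tet1, had -0.43 and -0.44, and none of the 4 was called at 24 h in SOX2-FKBP or OCT4-FKBP cells. Member OCRs were 203 to 3063 bp wide (median 689), 58 lay within the gene they are named after and 30 in intergenic sequence. Some windows hold starts of other genes: 10 members sit at such starts, and distance does not tell which gene an OCR serves.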

How the data were processed

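ATACseq was performed on SOX2-FKBP, OCT4-FKBP and NANOG-FKBP mESC. Per the labels and methods, the authors aligned reads to mm10 with BWA 0.7.17-r1188, used SAMtools 1.10 and Picard 2.12.0, removed duplicates and, having merged the libraries, ran MACS2 for peaks. Fragments overlapping each peak were counted. The deposited table holds these raw counts for 184964 peaks in 31 libraries. Of 45 samples in the series, 14 are not analysed here. Peak starts, ends and summit offsets are coordinates deposited by the authors.

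Peaks were tested with edgeR 4.0.16 (R 4.3.3; quasi-likelihood F test, TMM, Benjamini-Hochberg, threshold 0.05). The SOX2 course was fitted on 12 libraries (more than 10 counts in more than 2, 160432 peaks) and the 3 lines on 27 (more than 10 counts in more than 6, 166430 peaks). SE was taken as the absolute log2 fold change over the square root of F. Tables and plots were made in Python 3.11.15 with pandas 2.3.3, numpy 2.4.6 and matplotlib 3.10.9. Depth was 1817191 to 17575631 counts per library. Tested on simulated data, the SOX2 2 h comparison (156597 peaks) recovered 68.75% of 96 changes of 4-fold and 11% of 100 of 2-fold, with 6 of 83 calls false, and OCT4 2 h (161735 peaks) 88.1% of 84 and 11.7% of 111, with 3 of 90 false.

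Members and lists were chosen with earlier results of these data known. Named for each gene were the promoter OCR (summit within 1000 bp of the 5′ end) and the OCRs with the largest loss and gain at 2 or 24 h of SOX2 or OCT4 depletion (mean of at least 50 raw counts in the higher group, each treated library on the same side of both NT libraries), with those called under NANOG depletion or differing between SOX2 and OCT4. Other OCRs given by name were chosen after their values were seen. An OCR is at a start within 500 bp.

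Whether replicate numbers pair libraries was checked by correlating deviations from group means. Over all tested peaks the correlation was 0.159 to 0.378 in OCT4-FKBP, 0.0875 to 0.248 in SOX2-FKBP and -0.0403 to 0.345 in NANOG-FKBP cells. A second measure, over peaks with 10 or more counts in every library, was chosen after the first was seen and gave 0.231 to 0.501, 0.115 to 0.360 and -0.203 to 0.667. The first measure was kept, with a minimum of 0.1: OCT4-FKBP libraries were taken as paired, and SOX2-FKBP ones as not, although the second measure would pair them. The OCT4 values given are nonetheless from the fit without a block, except where the block is named. Alternatives covered scaling, DESeq2 1.42.0, count filters, GC offsets (20 bins), the replicate block, the libraries fitted, leaving out libraries and the window.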

Additional observations from a re-analysis of the deposited data

Results flagged for a closer look

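The SOX2 and OCT4 responses differed at 6 OCRs by the test of the difference itself (edgeR quasi-likelihood test, SOX2 change minus OCT4 change on the log2 scale, adjusted over 166430 OCRs). At 2 h this was Dnmt1 -23.5 kb, with -1.34 (adjusted p = 0.0327). At 24 h the differences were 2.03 at Uhrf1 -37.0 kb (adjusted p = 0.00127), 1.61 at Tet1 +16.0 kb (0.00913), 1.68 at Tet1 +13.3 kb (0.0206), 1.77 at Tet1 +35.3 kb (0.0313) and -1.88 at Tet3 +31.5 kb (0.0472). The difference at Uhrf1 -37.0 kb stayed past the threshold in every alternative run, while each of the other 5 ended in at least 1. The labels give different parent lines for these cells, so the factor and the line cannot be told apart. Leaving out SOX2-FKBP libraries was not run for these differences.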

How the results depend on the processing

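Of 46 calls at the OCRs named by the rule, 21 were kept in all alternatives run and 25 lost the threshold in at least 1, in 80 of 582 fits, and 0 changed direction. No count filter and DESeq2 size factors in edgeR left all counts of calls within 1.5 times. With total counts as scaling, the median over all OCRs at 24 h of OCT4 depletion was -0.13 against -0.01. The self-test recovered few 2-fold changes. It changed 196 OCRs for SOX2 2 h and 195 for OCT4 2 h, with the same fixed spread for all OCRs. The real SOX2 2 h fit called 11680 OCRs lost and 2339 gained. Recovery in the self-test is therefore no measure of recovery in these data. Counts near 0 still do not show that no OCR changed. Leaving out SOX2-FKBP libraries in the 27-library fit was not run, nor was a fit of only the groups compared for changes between 2 and 24 h and for differences between lines. Except where the setting itself changes the OCRs tested or included, the cause was not tested.

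Counts below are of members, the reported value first. In the 27-library fit SOX2 gains were 1 and 0 at 2 h and 10 and 3 at 24 h. In DESeq2, SOX2 losses at 0.5 h were 2 and 1, SOX2 gains 1 and 0 at 1 h, 1 and 0 at 2 h and 10 and 3 at 24 h, OCT4 gains at 2 h 5 and 3, SOX2 changes between 2 and 24 h 10 and 3, and differences at 24 h 5 and 3. With GC offsets, SOX2 losses were 4 and 2 at 1 h and 10 and 6 at 24 h, SOX2 gains at 6 h 0 and 4, OCT4 losses at 2 h 5 and 3, OCT4 gains at 24 h 10 and 6, and SOX2 changes between 2 and 24 h 10 and 5. With at least 10 counts in every library, OCT4 gains were 5 and 1, 6 and 3, and 10 and 4 at 2, 6 and 24 h, and differences 1 and 0 at 2 h and 5 and 3 at 24 h. Fitting only the groups compared gave SOX2 losses of 2 and 4 at 0.5 h, SOX2 gains of 1 and 2 at 2 h and 0 and 6 at 6 h, and OCT4 gains of 5 and 3 at 2 h and 10 and 3 at 24 h. With total counts, SOX2 gains were 1 and 3 at 2 h and 0 and 7 at 6 h, OCT4 gains 5 and 3 at 2 h and 10 and 6 at 24 h, and differences at 2 h 1 and 0.

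With the replicate block, SOX2 losses at 0.5 h were 2 and 4, SOX2 gains 1 and 3 at 2 h, 0 and 10 at 6 h and 10 and 25 at 24 h, OCT4 losses at 6 h 7 and 12, OCT4 gains 6 and 17 at 6 h and 10 and 20 at 24 h, NANOG gains 0 and 1 at 6 h and 0 and 2 at 24 h, changes between 2 and 24 h 10 and 21 with SOX2 and 22 and 38 with OCT4, and differences 1 and 2 at 2 h and 5 and 11 at 24 h. The block ended no call of the fit without it among the members. With the replicate block and GC offsets, SOX2 gains were 1 and 2, 1 and 4, 0 and 7, and 10 and 19 at 1, 2, 6 and 24 h, OCT4 gains at 6 h 6 and 12, NANOG gains 0 and 1 at 6 h and 0 and 2 at 24 h, and differences 1 and 2 at 2 h and 5 and 13 at 24 h.

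Counting from the start of any annotated transcript gave 16 OCT4 and 2 NANOG gains at 24 h and 18 SOX2 changes between 2 and 24 h. A window of 100 kb gave 5, 7, 9, 14 and 21 SOX2 losses and 1, 6, 4, 5 and 24 gains over the 5 times, 8 and 13 OCT4 losses at 2 and 6 h, 11, 14 and 24 OCT4 gains at 2, 6 and 24 h, 2, 2 and 3 NANOG losses, 1 NANOG gain at 24 h, 26 SOX2 and 39 OCT4 changes between 2 and 24 h and 4 differences at 2 h. A window of 20 kb gave 1, 1, 1, 2 and 4 SOX2 losses, 0, 0 and 4 SOX2 gains at 1, 2 and 24 h, 2, 2 and 10 OCT4 losses, 2 and 3 OCT4 gains at 2 and 6 h, 0 NANOG losses at each time, 5 SOX2 and 12 OCT4 changes between 2 and 24 h, and 0 and 2 differences at 2 and 24 h.

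Leaving out 1 library at a time gave SOX2 losses of 0 to 2, 2 to 4, 3 to 4, 5 to 7 and 5 to 10 and gains of 0 to 0, 0 to 0, 0 to 1, 0 to 1 and 3 to 9 over the 5 times. OCT4 losses were 1 to 3, 5 to 9 and 13 to 18 and gains 1 to 5, 4 to 6 and 4 to 11 at 2, 6 and 24 h. NANOG losses were 1 to 1 and gains 0 to 0 at each time. Changes between 2 and 24 h were 2 to 8 with SOX2 and 9 to 22 with OCT4, and differences 0 to 1 at 2 h and 2 to 4 at 24 h. The SOX2 loss count at 0.5 h was 1 without NT replicate 2 and 0 without 0.5 h replicate 1.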
